A study of Homo sapiens with 12 samples.

Results

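Thyroid hormone receptor beta supplied to SW1736 cells and left without hormone was compared with an empty vector in the same line. SW1736 is a long-established culture derived from anaplastic thyroid carcinoma. The comparison used 6 of the 12 libraries of the study, chosen by their labels alone: 3 from cells transduced for stable expression of the receptor (TRB) and 3 from cells with the empty vector (EV). All 6 were starved of hormone in charcoal-stripped serum for 24 h and then given sodium hydroxide vehicle for 24 h. The other 6 libraries came from the same 2 kinds of cells given 10 nM triiodothyronine (T3) for 24 h after the same starvation, and serve here only to show how the genes that differed in vehicle stood with hormone. The labels do not name the promoter of the vector, say whether the cells are 1 clone or a pool, or say whether replicates were separate cultures, so p-values measure the spread between these libraries, which may be technical. The question was what the receptor changes across genes when no hormone is added.

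Thyroid hormone receptors are nuclear receptors that sit on DNA with or without their ligand. Without T3 they recruit corepressor complexes that contain NCOR1 and histone deacetylases, and positively regulated targets are held low. T3 exchanges these for coactivators, and the same targets rise. THRB is the form that prevails in liver and in the feedback control of the pituitary, and its loss is common in thyroid cancers.

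In vehicle, 14008 of the 56832 gene symbols in the files had enough reads to be tested. In edgeR's quasi-likelihood test with Benjamini-Hochberg adjustment at 0.05, 1563 genes passed, which is 11.2% of those tested. Of these 826 were higher in TRB cells (5.9%) and 737 lower (5.26%). Most differences were small, with a median absolute log2 fold change of 0.41 among the genes that passed. The fold change between vectors also followed the GC content of the gene, with a Spearman correlation of 0.719 across the 87.35% of tested genes with a GC value, a description across genes, which are not independent replicates. A second fit removed a smooth GC trend from each library (GC offsets), and 429 of 12236 genes passed in it (3.51%), 1.61% higher and 1.9% lower. A total of 259 genes passed in both fits in the same direction (2.12% of 12236), 133 higher and 126 lower, and only 29 of them differed by more than 2-fold. The genes described most fully below are therefore given with their value under GC offsets.

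Counts within genes totalled 9359470 to 11337084 in the TRB libraries and 4606508 to 12300558 in the EV libraries, the lowest being EV replicate 1. The libraries stood apart in ways that moved with the groups. The deviation of each library from the mean of the 6 had a Spearman correlation with GC content of 0.437 to 0.626 in the TRB libraries and of -0.797 to -0.0789 in the EV libraries. Without TRB replicate 3 only 13 genes passed and without EV replicate 2 only 36, against 1837 without EV replicate 1. THRB, CLEC3A, SGK1, TNC, BHLHE41 and MMP7, described first, passed in each of the 6 fits that left out a library and with GC offsets.

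The labelled cell type was checked against its markers. TSHR, the thyrotropin receptor, and FOXE1, a thyroid transcription factor, had 0 counts in all 6 libraries, which allows up to 3 counts in each for counting error alone. Thyroglobulin (TG) had 5 counts in all and the iodide transporter SLC5A5 had 1. PAX8 lay between 4.51 and 7.19 CPM (counts per 1000000 counts of the scaled library size) and NKX2-1 between 0.821 and 1.49. Vimentin (VIM), a mesenchymal filament, lay between 0.71 and 1.56 CPM, while the epithelial keratins KRT8 and KRT18 lay between 1270 and 1606 and between 1233 and 1470 and E-cadherin (CDH1) between 139.1 and 160.3. Genes known from gut epithelium were measured after their levels had been seen. HNF4A lay between 98.2 and 129.7 CPM, villin (VIL1) between 166.6 and 190.8, LGALS4 between 585 and 756.7 and KRT20 between 85.7 and 94.2. Other gut genes were low or absent. CDX2 lay between 1.396 and 2.485 CPM, CDH17 between 0.4478 and 1.775, TFF1 between 0.4107 and 0.6296 and CEACAM5 between 4.189 and 6.656. CDX1 had 0 counts in all 6 libraries and TFF2 had 1. Thus the defining thyroid markers were absent or near 0, and whether the cultures match their label was not tested.

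Among markers of other cell types, the leukocyte genes PTPRC and CD3E had 7 and 0 counts in all 6 libraries. The endothelial gene CDH5 and the fibroblast gene PDGFRA had 0. The summed level of the 12 leukocyte markers was 1307 to 1472 CPM in EV cells and 830.3 to 1012 in TRB cells, nearly all of it lysozyme (LYZ, 1379 ± 84.6 and 929.1 ± 92.3), which many epithelia also make. For the 10 endothelial markers the sum was 36 to 46.8 CPM in EV cells and 45.7 to 52.3 in TRB cells, nearly all of it ESAM (40.5 ± 5.49 and 48.4 ± 3.41), which did not pass (edgeR adjusted p 0.09035). For the 10 fibroblast markers it was 18.7 to 21.7 and 27.6 to 30.4, most of it COL1A1 (18.9 ± 1.81 and 27.5 ± 1.33), which passed only without GC offsets. In bulk RNA, fewer cells of a kind and less RNA per cell cannot be told apart.

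THRB itself (chromosome 3, 24117153 to 24495756, minus strand, GRCh38 in GENCODE release 29) served as the first test of the labels. Its level was 13.4, 15.3 and 15.8 CPM in EV replicates 1, 2 and 3 and 82.8, 82.2 and 83.2 in the TRB replicates. The groups lay far apart and the TRB libraries were nearly equal, with means of 14.8 ± 1.24 (SD, n = 3) and 82.7 ± 0.49. The difference was 5.49-fold (log2 2.46, SE 0.09, edgeR adjusted p 4.592e-08), and 2.58 on the log2 scale with GC offsets. Reads from the vector and from the endogenous gene are counted together. THRA, the other receptor gene, stood at 96.9 ± 11.05 CPM in EV cells and 104 ± 2.6 in TRB cells and did not pass (log2 0.11, edgeR adjusted p 0.4098; -0.10 with GC offsets).

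CLEC3A encodes a secreted C-type lectin related to tetranectin, known mainly from cartilage (chromosome 16, 78022515 to 78066761, plus strand). It stood at 7.61, 11.1 and 10.2 CPM in EV cells and at 0.525, 0.355 and 0.694 in TRB cells, from 34, 135 and 110 reads against 5, 4 and 8. Every TRB library was more than 10 times below every EV library. The means were 9.64 ± 1.81 and 0.525 ± 0.17 (SD, n = 3), 18.47-fold lower with the receptor (log2 -4.21, SE 0.27, edgeR adjusted p 1.686e-05; -4.00 with GC offsets). Of the 16 C-type lectin and tetranectin genes listed, 6 were tested, and CLEC3A was the 1 that passed, against 11.2% of all genes.

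SGK1, the serum and glucocorticoid regulated kinase that controls sodium channels and cell survival downstream of PI3K, lies on chromosome 6 (134169246 to 134318112, minus strand). It had 26.9, 30 and 28.8 CPM in EV cells and 12.5, 13.1 and 12.8 in TRB cells. Replicates of a group lay close together, and the groups lay 2.25-fold apart (log2 -1.17, SE 0.099, edgeR adjusted p 2.604e-04; -0.99 with GC offsets). SGK1 and THRB passed in all 18 alternative settings, and CLEC3A in the 17 in which it could be fitted.

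TNC encodes tenascin C, a matrix glycoprotein of wounds and tumour stroma (chromosome 9, 115019578 to 115118257, minus strand). Its level was 20.8, 20.6 and 23.3 CPM in EV cells and 9.97, 7.28 and 8.94 in TRB cells. The groups did not overlap, as the rule for naming genes required, and differed 2.49-fold (log2 -1.32, SE 0.13, edgeR adjusted p 8.926e-04, and -1.45 with GC offsets).

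BHLHE41 encodes DEC2, a circadian repressor of the basic helix-loop-helix family (chromosome 12, 26120026 to 26125127, minus strand). It had 63.6, 60.5 and 55.4 CPM in EV cells and 25.5, 30 and 29.8 in TRB cells. The gap of 2.09-fold exceeded the spread within either group (log2 -1.06, SE 0.096, edgeR adjusted p 3.679e-04; -1.10 with GC offsets). MMP7, matrilysin, a metalloproteinase of secretory epithelia (chromosome 11, 102520508 to 102530753, minus strand), stood at 69.4, 75.9 and 78.7 CPM in EV cells and 31.4, 39.7 and 37.2 in TRB cells. It was 2.08-fold lower with the receptor (log2 -1.05, SE 0.098, edgeR adjusted p 4.594e-04; -0.88 with GC offsets). The plot of levels by library shows these genes beside those that were higher.

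**Figure D1:**
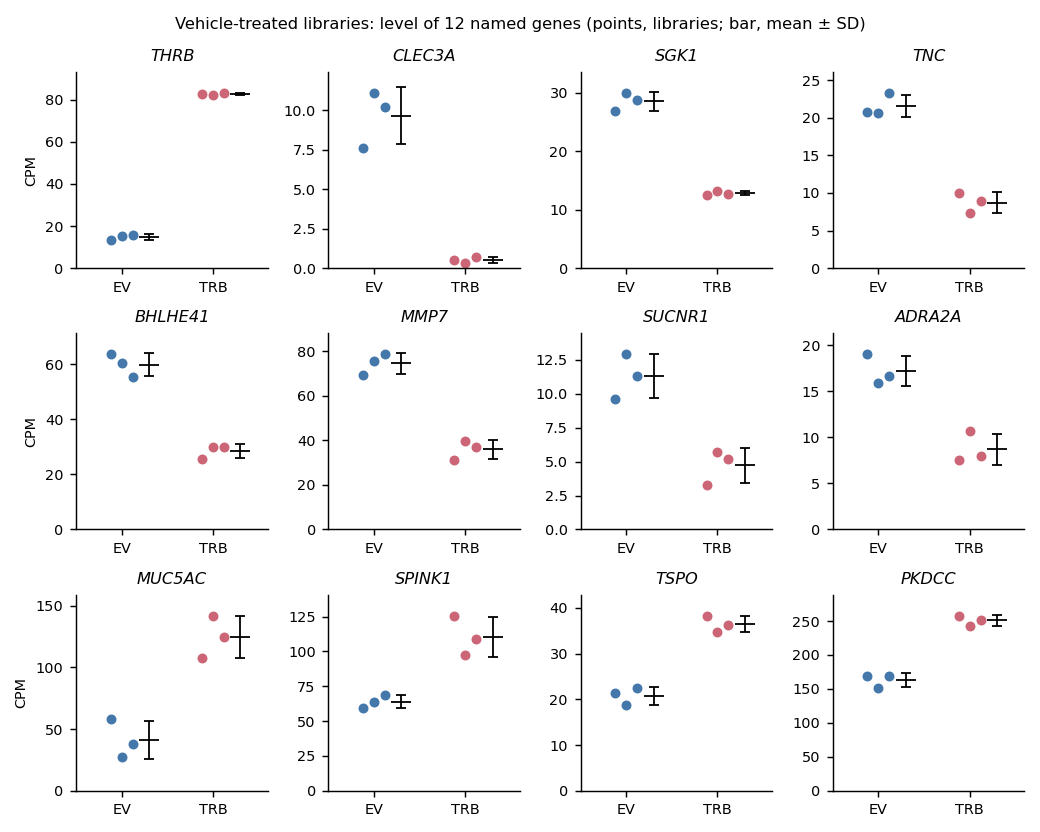
Level in CPM (vertical axes, from 0) of 12 named genes in the 3 EV and 3 TRB vehicle libraries, with points for libraries and bars for the mean ± SD. In each panel the 3 TRB libraries lie all above or all below the 3 EV libraries, with CLEC3A at 9.64 against 0.525 CPM and MUC5AC at 41 against 124.8. Apart from THRB, CLEC3A and SGK1, these genes were named by a rule that required such separation.

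SGK1, TNC, BHLHE41 and MMP7 are lower together in vehicle and, as described further on, higher with the receptor when T3 is present. For that reason the 250 bases before the RefSeq start of each are shown. They come from RefSeq promoters of GRCh38.p14, which held 4 of the 5 genes looked up and not CLEC3A. A single start was used for each gene, so other starts of the same gene were not searched. The SGK1 window adjoins the outer end of its GENCODE span, at 134318112. For TNC, BHLHE41 and MMP7 the RefSeq start lies inside the GENCODE span given above, so part of each window lies within that span. They were searched on both strands for the receptor half-site AGGTCA, for its direct repeat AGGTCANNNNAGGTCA, and for the AP-1 motif TGANTCA, the last chosen after the windows had been seen. Capitals mark a match.
SGK1 (chr6:134318113-134318362, minus strand): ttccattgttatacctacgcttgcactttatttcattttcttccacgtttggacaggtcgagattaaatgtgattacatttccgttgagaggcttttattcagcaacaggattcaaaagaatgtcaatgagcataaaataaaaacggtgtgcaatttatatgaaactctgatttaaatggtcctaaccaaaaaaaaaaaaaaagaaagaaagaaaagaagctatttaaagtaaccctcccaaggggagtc
TNC (chr9:115118158-115118407, minus strand): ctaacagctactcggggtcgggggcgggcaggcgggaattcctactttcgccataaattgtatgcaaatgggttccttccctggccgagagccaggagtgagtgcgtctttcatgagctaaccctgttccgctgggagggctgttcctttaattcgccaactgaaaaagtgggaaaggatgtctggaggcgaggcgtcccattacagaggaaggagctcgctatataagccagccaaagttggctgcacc
BHLHE41 (chr12:26125038-26125287, minus strand): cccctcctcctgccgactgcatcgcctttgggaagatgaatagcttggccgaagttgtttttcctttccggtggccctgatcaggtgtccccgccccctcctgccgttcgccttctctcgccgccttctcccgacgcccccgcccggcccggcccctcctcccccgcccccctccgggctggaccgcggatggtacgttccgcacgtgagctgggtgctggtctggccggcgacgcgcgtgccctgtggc
MMP7 (chr11:102530748-102530997, minus strand): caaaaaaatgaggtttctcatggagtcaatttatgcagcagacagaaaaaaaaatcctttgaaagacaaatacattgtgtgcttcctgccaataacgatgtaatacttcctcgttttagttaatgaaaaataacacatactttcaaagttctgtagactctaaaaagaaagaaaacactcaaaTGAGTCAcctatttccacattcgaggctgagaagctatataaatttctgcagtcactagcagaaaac
None of the 4 windows holds the half-site or the direct repeat, and 12.1% of all 27305 windows of this length hold the half-site and 0.0146% the repeat. The MMP7 window holds 1 match to the AP-1 motif, starting 67 bases before the RefSeq start. Of all windows 6.6% hold that motif. A match is a match of letters only, and starts or sites outside these windows were not searched.

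Further genes met the naming rule on the lower side. SUCNR1, the receptor for succinate, stood at 11.3 ± 1.64 CPM in EV cells and 4.71 ± 1.29 in TRB cells (log2 -1.27, SE 0.2, edgeR adjusted p 0.01131; -0.92 with GC offsets). ADRA2A, the alpha-2A adrenergic receptor, stood at 17.2 ± 1.61 and 8.73 ± 1.68 (log2 -0.95, SE 0.15, edgeR adjusted p 0.01137; -1.16 with GC offsets). SEPP1, selenoprotein P, a selenium carrier of plasma, stood at 16.6 ± 3.3 and 8.96 ± 0.671 (log2 -0.91; -0.58 with GC offsets). TFPI, the inhibitor of tissue factor, stood at 101.4 ± 14.1 and 57.1 ± 13.1 (log2 -0.83; -0.66 with GC offsets). BTC, betacellulin, a ligand of the EGF receptor, stood at 11.3 ± 2.48 and 5.98 ± 0.829 (log2 -0.85, edgeR adjusted p 0.02165), and did not pass with GC offsets (adjusted p 0.06154). Libraries of the groups did not overlap for any of these 5, which the naming rule required. Over all tested genes, 37.2% did not overlap. None of the 5 passed without TRB replicate 3 or without EV replicate 2.

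On the higher side, after THRB, 4 genes with messenger RNA products led by adjusted p. MUC5AC, the gel-forming mucin of stomach and airway, lies on chromosome 11 (1157953 to 1201138, plus strand). It had 57.8, 27.3 and 38.1 CPM in EV cells and 107.9, 142 and 124.6 in TRB cells. EV replicate 1 was the highest of its group and still below every TRB library, as the naming rule required. The difference was 3.19-fold (log2 1.67, SE 0.2, edgeR adjusted p 3.049e-03; 1.49 with GC offsets).

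SPINK1, a secreted trypsin inhibitor (chromosome 5, 147824568 to 147831786, minus strand), stood at 59.3, 63.8 and 68.4 CPM in EV cells and 125.8, 97.2 and 108.8 in TRB cells. It was 1.72-fold higher (log2 0.78, SE 0.1, edgeR adjusted p 5.455e-03; 1.02 with GC offsets). TSPO, a translocator of the outer mitochondrial membrane, stood at 20.8 ± 1.92 and 36.5 ± 1.76 CPM, 1.76-fold higher (log2 0.82, SE 0.1, edgeR adjusted p 3.779e-03; 0.53 with GC offsets). PKDCC, a secreted tyrosine kinase of the matrix, stood at 163.1 ± 10.1 and 250.8 ± 8 CPM, 1.54-fold higher (log2 0.62, SE 0.074, edgeR adjusted p 3.157e-03; 0.33 with GC offsets). These 4 passed in each fit that left out 1 library and with GC offsets. C19orf33 and TMEM160, protein-coding genes at 27.2 ± 14.4 and 10.9 ± 3.55 CPM in EV cells and 56.2 ± 3.35 and 21.1 ± 2.15 in TRB cells, did not pass with GC offsets (adjusted p 0.1126 and 0.1034).

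The other genes with the most positive differences were short structural RNAs and a histone gene. RN7SL1, the RNA of the signal recognition particle, had 146.2, 363 and 608.1 CPM in EV cells and 3052, 730.2 and 1319 in TRB cells. TRB replicate 1 was far above the rest. The lowest TRB library lay above the highest EV library, as the naming rule required (log2 2.18, SE 0.5, edgeR adjusted p 0.02606, and 1.89 with GC offsets). RN7SL2, its near-identical copy, behaved likewise, from 577.3 ± 231.6 to 1612 ± 1006 CPM (log2 1.48), and with GC offsets was 1.20 without passing (adjusted p 0.08032). Reads of such a pair cannot be assigned with certainty.

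SNORD13, a small nucleolar RNA, stood at 7.55 ± 2.38 CPM in EV cells and 25.3 ± 15.9 in TRB cells (log2 1.82; 1.79 with GC offsets). The Cajal body RNAs SCARNA2 and SCARNA13 stood at 108.8 ± 19.2 and 27.5 ± 3.29 CPM in EV cells and at 250.6 ± 68.2 and 53.9 ± 19.1 in TRB cells. HIST2H3D, a histone H3 gene, stood at 16 ± 5.05 and 39.5 ± 10.4 CPM (log2 1.25; 0.86 with GC offsets). None of these RNAs passed without TRB replicate 3 or without EV replicate 2.

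The mitochondrial ribosomal RNAs were lower with the receptor, with wide spread. MT-RNR1 had 941.8, 155.1 and 18.4 CPM in EV replicates 1, 2 and 3 and 41.8, 2.84 and 15.5 in the TRB replicates. The EV libraries spread widely, and EV replicate 3 lay below TRB replicate 1 (log2 -4.21, SE 1.09, edgeR adjusted p 0.03602; -4.145 with GC offsets, adjusted p 0.04719). The call was lost when TRB replicate 2, TRB replicate 3, EV replicate 1 or EV replicate 2 was left out (adjusted p 0.06333 to 0.1178), and was -2.16 on the log2 scale without EV replicate 1. All 15 mitochondrially encoded genes had negative values, with a median of -0.44 against 0.0023 over all genes tested, and 3 passed (MT-RNR1, MT-RNR2 and MT-ND4), of which MT-RNR1 also passed with GC offsets. Of the 15 tested nuclear and small noncoding RNAs 4 passed, all higher, with a median of 0.51. The shares over all genes were 5.9% higher and 5.26% lower. The levels of these RNAs varied between libraries as well as between groups. The sum of the 18 listed noncoding RNAs was 23250 to 27170 CPM in EV and 23670 to 32260 in TRB cells. For the 15 mitochondrially encoded genes the sum was 35180 to 54700 and 27430 to 37320. The part of these RNAs in the other differences was not tested.

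**Figure D2:**
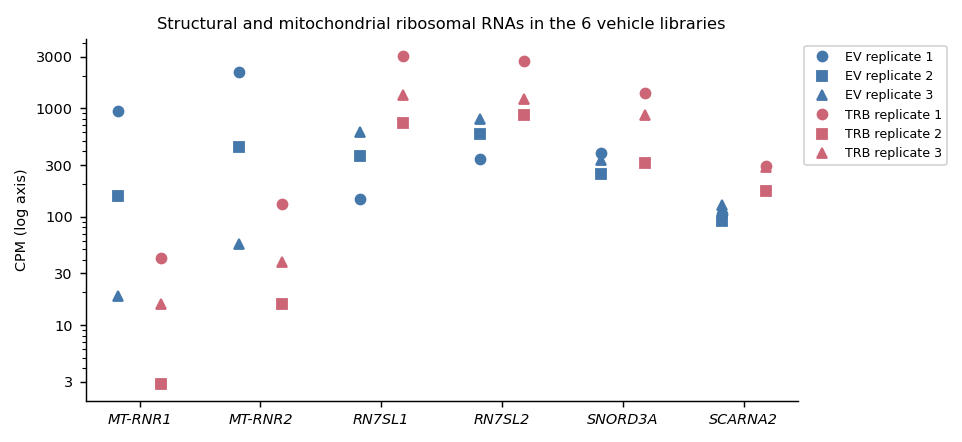
Level in CPM (log axis) of 2 mitochondrial ribosomal RNAs and 4 nuclear or cytoplasmic structural RNAs in the 6 vehicle libraries, blue for EV and red for TRB, with marker shapes for replicates. MT-RNR1 runs from 18.4 to 941.8 within EV, and RN7SL1 from 730.2 to 3052 within TRB.

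How calls followed GC content is shown in the plot of fold change against GC content. Of the 1970 tested genes with GC content under 40%, 2 passed as higher and 383 as lower in TRB cells, with a median log2 fold change of -0.28. Of the 1801 genes above 60%, 421 passed as higher and 2 as lower, with a median of 0.28. With GC offsets the counts were 20 and 20 in the first group and 31 and 32 in the second. The biological coefficient of variation was 0.0869 without and 0.0634 with the offsets. The part of GC content in any 1 gene's difference was not tested beyond the offset values given here.

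**Figure D3:**
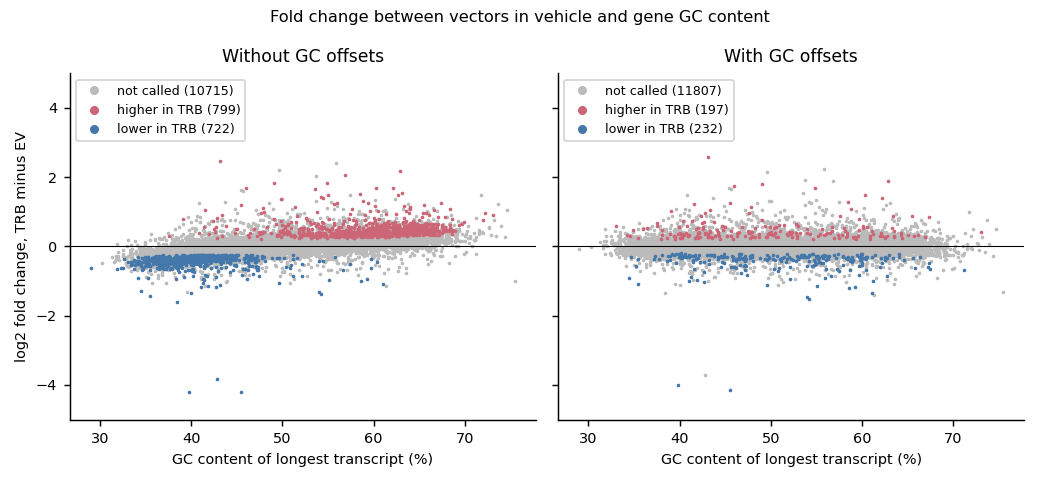
Log2 fold change of TRB against EV in vehicle (vertical axis) against GC content of the longest transcript in percent (horizontal axis), without GC offsets on the left and with them on the right; each point is a gene, red if called higher and blue if called lower. On the left calls run from mostly lower at low GC content to mostly higher at high GC content, and on the right 197 higher and 232 lower calls lie along all of it.

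Of the receptor's own machinery, 22 of 23 genes for receptors, RXRs, corepressors, coactivators and histone deacetylases were tested. THRB, the supplied gene, was the 1 that passed as higher, and 2 passed as lower, against 5.9% and 5.26% of all genes. HDAC2, a deacetylase of corepressor complexes (166.4 ± 9.74 CPM in EV, 131.9 ± 6.44 in TRB), and the coactivator NCOA2 (106.1 ± 3.72 and 88.7 ± 3.74) were lower without GC offsets, and neither passed with them (adjusted p 0.409 and 0.2075). Of 7 tested genes for T3 transport and deiodination, SLC3A2, the heavy chain of an amino acid transporter that also carries thyroid hormone, was higher in both fits (245.5 ± 14.4 and 349.2 ± 21.1 CPM, log2 0.51; 0.33 with GC offsets). Its light chain SLC7A5 was higher only without GC offsets. Thus 2 of the 7 passed as higher without the offsets, against 5.9% of all genes, and 1 in both fits, against 1.09%.

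Among 24 tested genes known to respond to T3, 4 passed as higher and 1 as lower, with a median log2 fold change of 0.08. The shares over all genes were 5.9% higher and 5.26% lower. KLF9, a direct T3 target in many tissues, was the lower one. It had 15, 14.5 and 13.3 CPM in EV cells and 8.19, 11.3 and 9.64 in TRB cells (log2 -0.54, SE 0.14, edgeR adjusted p 0.03588), and did not pass with GC offsets (-0.49, adjusted p 0.05819). CPT1A, which brings fatty acids into mitochondria and is a T3 target in liver, was higher in both fits (103.5 ± 5.76 and 131.6 ± 3.32 CPM, log2 0.35; 0.28 with GC offsets). Of the 6 tested thyroid genes 1 passed, TFF3, a trefoil peptide of mucous epithelia, against 11.2% of all genes. It stood at 0.984 ± 0.44 CPM in EV cells and 3.2 ± 0.14 in TRB cells (log2 1.83, edgeR adjusted p 0.01469, and 1.69 with GC offsets). These levels came from 6, 6 and 12 reads in EV cells and 32, 35 and 36 in TRB cells. TFF3 did not pass without TRB replicate 3 or without EV replicate 2, and DESeq2 gave it no adjusted p.

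Among 20 tested glucocorticoid and stress kinase targets, 2 passed as higher and 4 as lower, against 5.9% and 5.26% of all genes. Beside SGK1, SCNN1A, the alpha subunit of the epithelial sodium channel that SGK1 is known to keep at the membrane, was lower in both fits. It stood at 66.5, 56.4 and 64.2 CPM in EV cells and 44.4, 44 and 41.1 in TRB cells (log2 -0.52, SE 0.089, edgeR adjusted p 0.01433; -0.70 with GC offsets). FKBP5, a cochaperone of the glucocorticoid receptor, was lower without GC offsets only (66.8 ± 2.96 and 49.7 ± 1.35 CPM). DDIT4, an inhibitor of mTORC1, was higher in both fits (41.1 ± 2.91 and 64.4 ± 6.77 CPM, log2 0.65; 0.45 with GC offsets).

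Of the 12 tested RUNX and KLF transcription factors 3 passed without GC offsets, all lower, against 5.26% lower over all genes. RUNX2, the bone transcription factor, had 19.5, 16.8 and 14.5 CPM in EV cells and 10.3, 9.41 and 11.1 in TRB cells (log2 -0.69, SE 0.14, edgeR adjusted p 0.01975; -0.63 with GC offsets). KLF5 (624.4 ± 29.9 and 454.2 ± 94.6 CPM) and KLF10 (112.7 ± 3.2 and 91.8 ± 9.77) passed only without GC offsets. RUNX2 was the 1 of the 12 that passed in both fits, where 1.09% of all genes passed as higher and 1.03% as lower.

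Of 22 stress and unfolded protein response genes, 5 passed, all higher, against 5.9% higher over all genes. In both fits 4 passed, against 1.09% higher over all genes, and 2 more passed only with GC offsets. The median of the list was 0.14, and 0.12 with GC offsets. TRIB3, a pseudokinase induced by amino acid stress, stood at 137 ± 5.99 CPM in EV cells and 199.6 ± 5.45 in TRB cells (log2 0.54, edgeR adjusted p 6.395e-03; 0.31 with GC offsets). SESN2, a leucine sensor, stood at 34.8 ± 2.43 and 49.3 ± 2.87, and PHGDH, the first enzyme of serine synthesis, at 130.4 ± 5.02 and 167.5 ± 0.113. DDIT4 belongs to this list too.

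Sterol and fatty acid genes went both ways. Of 26 tested, 2 passed as higher and 4 as lower, with a median of 0.05, against 5.9% and 5.26% of all genes. CYP51A1, lanosterol demethylase, stood at 3.07 ± 0.283 CPM in EV cells and 6.22 ± 1.38 in TRB cells (log2 1.05; 1.23 with GC offsets). The desaturase SCD was lower (254.4 ± 13.9 and 185.8 ± 6.24, log2 -0.45; -0.43 with GC offsets), and so was squalene epoxidase (SQLE, 206.9 ± 3.71 and 173.1 ± 5.82). CYP51A1, SCD and SQLE passed in both fits.

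In the TGF-beta list 4 of 22 passed as higher and 1 as lower, against 5.9% and 5.26% of all genes. The matrix protein TGFBI (15.5 ± 0.453 and 24 ± 0.911 CPM, log2 0.64), CTGF (7.3 ± 0.746 and 12.1 ± 1.13, log2 0.70) and CYR61 (18.2 ± 1.56 and 27 ± 0.58, log2 0.59) were higher in both fits. CTGF and CYR61 are secreted matricellular proteins known also as targets of YAP. Of 21 matrix genes 6 passed, all higher, against 5.9% higher over all genes. In both fits 1 of them passed, against 1.09% higher over all genes. COL1A1, ITGB4, LAMA5 and LAMB3 passed only without the offsets.

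Of the 17 mesenchymal and epithelial genes tested, KRT17, a keratin of basal and stressed epithelium, was higher (7.35 ± 0.839 and 12.5 ± 0.545 CPM, log2 0.74), and fibronectin (FN1) lower (15 ± 1.47 and 9.88 ± 0.545, log2 -0.61), both in both fits. Of 20 Wnt, Notch and Hedgehog genes, the Notch ligand JAG1 was higher (88.1 ± 7.52 and 110.8 ± 3.31, log2 0.32) and NKD1, a Wnt feedback inhibitor, lower (30.7 ± 1.89 and 24.1 ± 2.42, log2 -0.35). These 2 also passed in both fits, where 1.09% of all genes passed as higher and 1.03% as lower.

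The cell cycle lists are read against 11.2% of all genes that passed. Of 29 genes of G1/S and DNA replication 2 passed, both lower: RRM2, a subunit of ribonucleotide reductase (125.9 ± 9.97 and 98.3 ± 7.63 CPM, in both fits), and CCNE2, cyclin E2 (20.5 ± 2.57 and 14.1 ± 1.56, without GC offsets only). Of 30 genes of G2/M and mitosis, AURKB passed as higher and CENPE as lower, neither with GC offsets. With the offsets ANLN (log2 0.25, edgeR adjusted p 0.02945) and CCNB1 (log2 0.27, edgeR adjusted p 0.0457) passed as higher, and neither did without them. The value of CENPE went from -0.30 to 0.04 with the offsets. Replication-dependent histone genes stood apart from these, with 7 of 16 passing, all higher, and a median of 0.32 (0.22 with GC offsets). HIST1H3H (72.8 ± 7.27 and 125.8 ± 18.1 CPM), HIST1H4H (60.6 ± 5.43 and 91 ± 15.9) and HIST1H2AC (142.6 ± 18.3 and 183 ± 13.6) were higher in both fits. Histone messages lack a poly(A) tail, and their level moved with that of the short RNAs above, whose part in it was not tested.

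In several lists the calls did not hold in both fits. No member passed in both fits among 21 interferon genes (1 higher, 2 lower without GC offsets), 19 JAK and STAT genes (2 higher), 23 PI3K and AKT genes (2 lower), 22 ERK feedback genes (2 higher), 8 aryl hydrocarbon receptor genes (1 lower), 30 ribosomal protein genes (2 higher) and 10 stem-like genes (1 lower). In the edgeR test without offsets 0 of 18 NF-kappaB and cytokine genes passed, with 2 at an unadjusted p under 0.05 and 0 in DESeq2. With the offsets BCL3 and TNFAIP2 passed as lower. Of 27 glycolysis genes 3 were higher, of which the angiogenic factor VEGFA passed in both fits (262.1 ± 8.74 and 338 ± 8.29 CPM, log2 0.37). Over all genes 5.9% passed as higher and 5.26% as lower without GC offsets, and several of these lists had shares close to that. LYZ, the 1 tested leukocyte marker, was lower in both fits (1379 ± 84.6 and 929.1 ± 92.3 CPM, log2 -0.57; -0.41 with GC offsets).

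**Figure D4:**
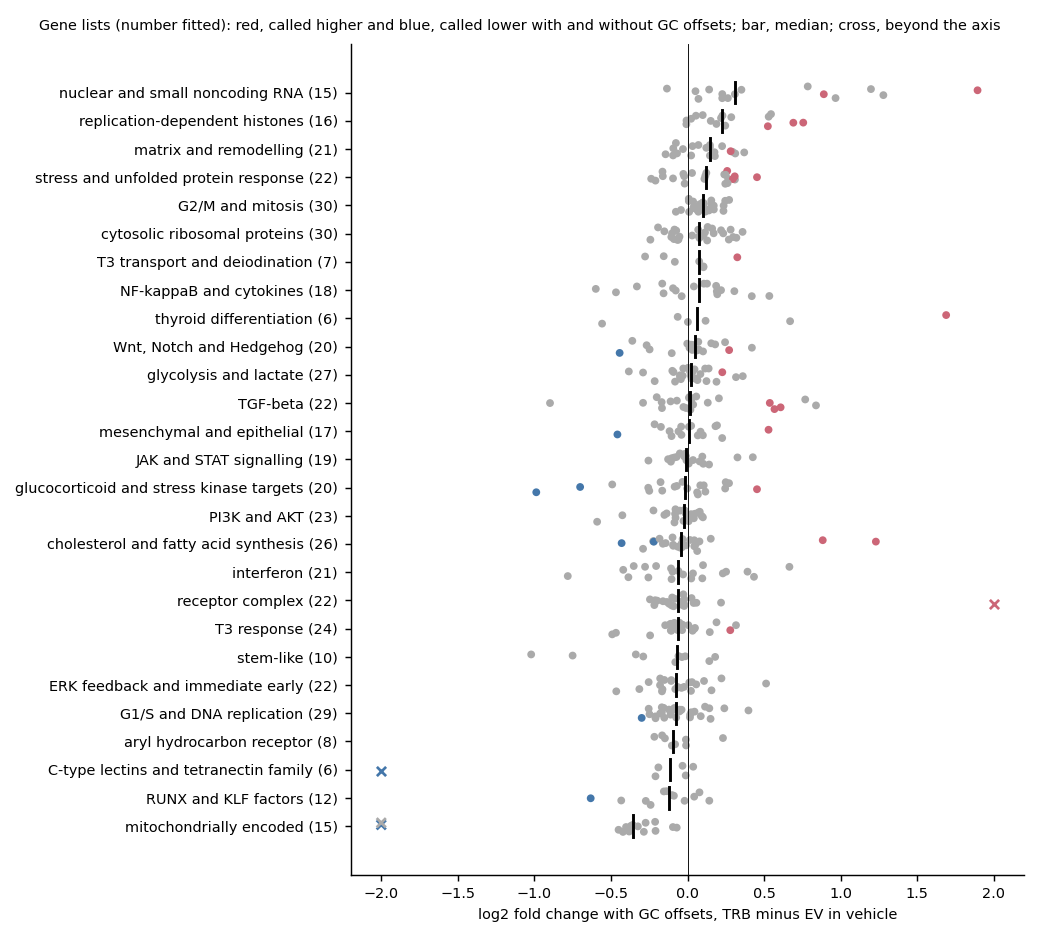
Log2 fold change of TRB against EV in vehicle with GC offsets (horizontal axis) for the members of 27 gene lists with at least 3 genes tested, ordered by median (black bars); red and blue points were called higher or lower in both fits, and crosses lie beyond the axis. Histones and noncoding RNAs have the highest medians (0.22 and 0.31) and mitochondrially encoded genes the lowest (-0.36), while most lists sit near 0 with few or no coloured points.

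The T3 libraries showed how these genes stood when the ligand was present. Replicate 2 of TRB with T3 stood apart in earlier results of these data, and its share of alignments that were not unique was 19.03% against 58.89% and 66.62% in the other 2. That replicate was left out, so TRB with T3 has 2 libraries, and values with it follow. The EV libraries with T3 were all kept, with 77.71%, 69.6% and 91.95% not unique in replicates 1, 2 and 3. EV with T3 replicate 3 had 3819306 counts within genes, the fewest of the 12 libraries. An interaction term in the fit of 11 libraries tested whether the difference between vectors differed between T3 and vehicle. It passed for 2259 of 14825 genes (15.2%), and for 374 genes with all 12 libraries. THRB itself stood at 81.8 CPM in TRB cells with vehicle and at 339.6 and 313.3 with T3. More receptor transcript and added ligand therefore cannot be told apart in this term.

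For the group led by SGK1 the sign of the difference turned. SGK1 stood at 28.4 CPM in EV cells and 12.7 in TRB cells with vehicle, and at 77.2 ± 11 (SD, n = 3) in EV and 253.7 and 274.4 in the 2 TRB libraries with T3. Lowest in the receptor cells without hormone, it was highest in them with hormone (interaction log2 2.94, SE 0.17, edgeR adjusted p 7.458e-07; 2.92 with 12 libraries). TNC went from 21.5 and 8.63 CPM with vehicle to 69.9 ± 12.9 in EV and 734.3 and 661 in TRB cells with T3 (interaction 4.65, SE 0.21, edgeR adjusted p 8.945e-08; 4.25 with 12 libraries). MMP7 went from 74.4 and 35.7 CPM to 346.4 ± 35.1 in EV and 1771 and 1824 in TRB cells (interaction 3.44, SE 0.17, edgeR adjusted p 1.188e-07; 3.64 with 12 libraries).

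BHLHE41 went from 59.6 and 28.1 CPM to 124.3 ± 20 in EV and 332.4 and 352.9 in TRB cells with T3 (interaction 2.54, edgeR adjusted p 4.353e-06; 2.97 with 12 libraries). RUNX2 went from 16.8 and 10.2 CPM to 31.1 ± 5.73 in EV and 108.3 and 101.6 in TRB cells (interaction 2.44, edgeR adjusted p 2.518e-05; 2.62 with 12 libraries). SCNN1A went from 62.1 and 42.7 CPM to 226 ± 27.7 in EV and 588.7 and 628.5 in TRB cells (interaction 1.97, edgeR adjusted p 1.074e-05), and did not pass with 12 libraries (adjusted p 0.2002). In the 5 T3 libraries fitted alone, which share no library with the comparison in vehicle, all 6 genes were higher in TRB cells. Their log2 fold changes there were 1.7 for SGK1, 3.25 for TNC, 2.30 for MMP7, 1.39 for BHLHE41, 1.67 for RUNX2 and 1.36 for SCNN1A, with the largest edgeR adjusted p 0.002627, and all 6 passed in each of the 5 fits without 1 T3 library. With TRB with T3 replicate 2 added, MMP7 passed (adjusted p 0.03624) and the other 5 did not (0.05715 to 0.5391). In vehicle, RUNX2 did not pass without TRB replicate 3 or without EV replicate 2, and SCNN1A did not pass without TRB replicate 3. SEPP1 (interaction 1.36) and TFPI (1.46) also had positive interactions, though neither passed between the vectors with T3 (adjusted p 0.2633 and 0.3438) or for the interaction with 12 libraries (adjusted p 0.07375 and 0.1121).

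CLEC3A and KLF9 differed from that pattern. CLEC3A stood at 9.6 CPM in EV cells and 0.518 in TRB cells with vehicle, and at 70.4 ± 11.1 in EV and 31.4 and 30.7 in TRB cells with T3. It was lower in the receptor cells under both treatments, less so with T3 (log2 -1.25 in the T3 libraries alone, edgeR adjusted p 0.007383; interaction 3.02, adjusted p 9.251e-05; adjusted p 0.002062 with 12 libraries). The difference within T3 passed in 2 of the 5 fits that left out 1 T3 library, and not with replicate 2 added (adjusted p 0.1299). KLF9 stood at 14.2 and 9.6 CPM with vehicle and at 150.9 ± 26.4 in EV and 110.1 and 111.3 in TRB cells with T3. Its interaction did not pass (0.10, SE 0.22, edgeR adjusted p 0.7852).

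ADRA2A and SUCNR1, lower with the receptor in vehicle, had their lowest levels in TRB cells with T3. ADRA2A stood at 17.2 and 8.64 CPM with vehicle and at 19.2 ± 3.09 and 1.98 and 1.58 with T3 (interaction -2.41, edgeR adjusted p 2.951e-04; -2.81 with 12 libraries). SUCNR1 stood at 11.2 and 4.67 CPM with vehicle and at 11.6 ± 7.04 and 2.06 and 2.37 with T3, with an interaction that did not pass (-1.21, adjusted p 0.1843).

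Genes that were higher with the receptor in vehicle also split. SPINK1 stood at 63.6 and 109.3 CPM with vehicle and at 52.7 ± 2.82 in EV and 29.6 and 27.8 in TRB cells with T3. The vectors thus changed order (interaction -1.65, edgeR adjusted p 6.174e-05, and -1.74 with 12 libraries). In the T3 libraries alone SPINK1 was lower in TRB cells (log2 -0.94, edgeR adjusted p 0.01333), but not with replicate 2 added (edgeR adjusted p 0.2054). TFF3 stood at 0.98 and 3.16 CPM with vehicle and at 0.933 ± 0.358 in EV and 0.158 and 0.396 in TRB cells with T3 (interaction -3.58, edgeR adjusted p 0.00627, and -3.93 with 12 libraries). The TRB levels of TFF3 with T3 rest on very few reads. It fell below the read filter in the T3 libraries alone and was not tested there. MUC5AC stood at 40.9 and 123.5 CPM with vehicle and at 15.1 ± 3.6 in EV and 31.1 and 26.6 in TRB cells with T3. The TRB libraries were above the EV libraries under both treatments, and the interaction did not pass (-0.65, SE 0.36, edgeR adjusted p 0.2526). In the T3 libraries alone the difference in MUC5AC did not pass (log2 0.89, edgeR adjusted p 0.05779), nor with replicate 2 added (edgeR adjusted p 0.8328). PKDCC passed (interaction -0.87, adjusted p 0.01543; 0.3027 with 12 libraries), and TSPO did not (-1.61, adjusted p 0.06333).

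**Figure D5:**
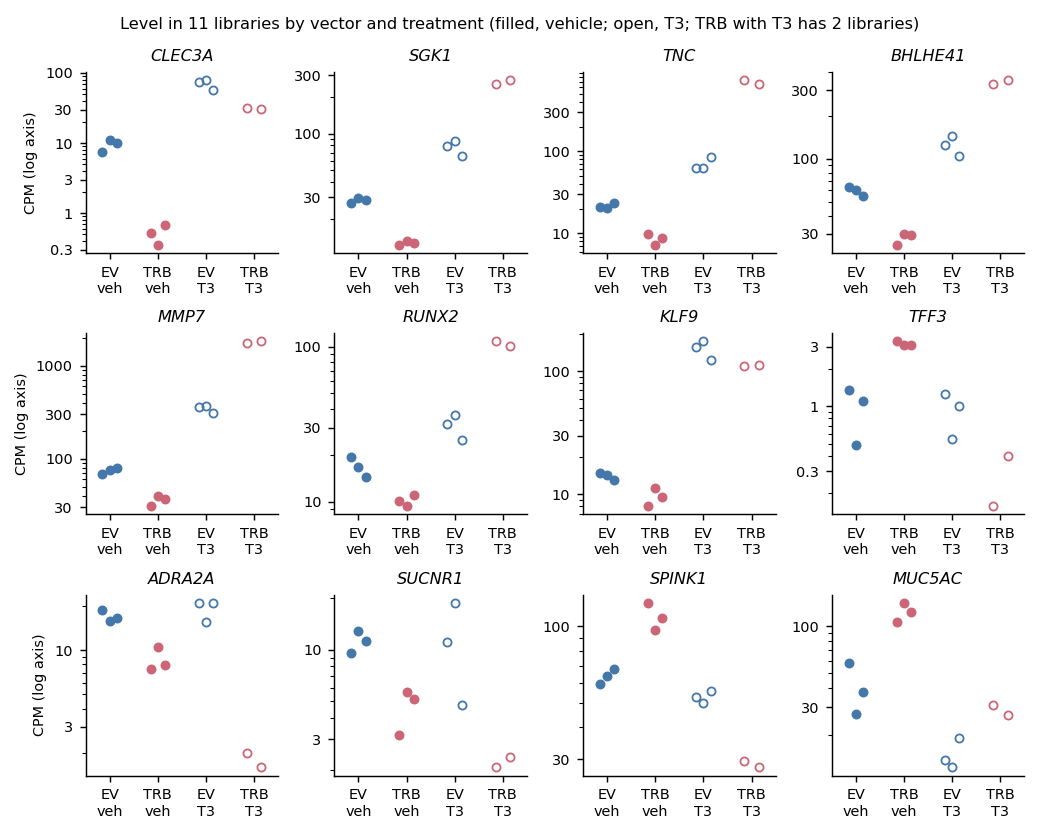
Level in CPM (log axes) of 12 genes in the 11 libraries by vector (blue, EV; red, TRB) and treatment (filled, vehicle; open, T3). SGK1, TNC, BHLHE41, MMP7 and RUNX2 are lowest in TRB with vehicle and highest in TRB with T3, CLEC3A is lower in TRB under both treatments, and ADRA2A and SUCNR1 are lowest in TRB with T3.

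Over all genes that passed in both fits in vehicle, the T3 libraries alone gave the same sign for 48 of 126 lower genes (38.1%) and 23 of 131 higher genes (17.56%). Over all 13449 genes tested in both comparisons the sign was shared by 42.62%. Between the vectors with T3, 1224 of 13827 genes passed (8.85%). Among the lower genes 43 passed there, 10 of them lower again, and among the higher genes 31 passed, 8 of them higher again. With GC offsets the shares of shared sign were 38.1% of the lower, 19.08% of the higher and 43.77% of all genes.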

How the data were processed

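RNA of 12 libraries of SW1736 cells was sequenced, 3 for each combination of vector (EV or TRB) and treatment (vehicle or T3), grouped by the labels. For every library the authors deposited 1 file of raw counts by gene symbol. Per the submitters' processing notes, CASAVA 1.7, STAR 2.7, HTSeq 0.10 and DESeq2 were used with build hg38, and strand use in counting is not given in the sources used here, so reads of overlapping or antisense genes are uncertain. A deposited table of normalized values was not used. The 5 closing lines of each file, which name no gene, entered neither library sizes nor tests. Non-unique alignments were 33.08% to 66.88% of what the 6 vehicle files count.

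edgeR 4.0.16 in R 4.3.3 was run with filterByExpr (minimum count 10, minimum total 15), trimmed mean of M-values, and a two-sided quasi-likelihood test on the 6 vehicle libraries alone, with Benjamini-Hochberg adjustment over all genes tested at 0.05. SE is the fitted log2 fold change divided by the root of its F statistic. CPM are counts per 1000000 counts of the scaled library size, and are not scaled by gene length, so levels are compared only within a gene. CPM in the account of T3 come from the 11-library scaling. GC offsets were a natural spline (5 degrees of freedom) of each library's deviation against the GC content of the longest GENCODE release 29 transcript, matched by symbol. The procedure was tested on simulated counts.

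The comparison, its members and the 30 gene lists were chosen with earlier results of these data known, so lists carry counts and medians and no test. Genes were named by a rule: THRB, THRA, CLEC3A and SGK1; among genes that passed with mean log2 CPM of at least 3 and no overlap between groups, the 10 most positive and negative, the 5 smallest adjusted p in each direction and the 5 most extreme that also passed with GC offsets; and in each list the called members with the smallest adjusted p, up to 4, and the highest by CPM. Some further list members that passed in both fits are named, and were chosen after their values were seen. Some genes are not reported here. Alternatives were DESeq2 1.42.0, other scalings and filters, 11 or 12 libraries, a required fold of 1.5, a prior count of 2, a replicate block and leaving out each library. The prior count changed fold changes only. Intervals and floors cover counting error only.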

Additional observations from a re-analysis of the deposited data

Results flagged for a closer look

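The difference between vectors was not the same in vehicle and T3, by the interaction term of edgeR's quasi-likelihood fit on 11 libraries, for 2259 genes. Among the genes named by size or adjusted p, it passed for 16 that are given here. More positive with T3 were TNC (4.65), MMP7 (3.44), CLEC3A (3.02), SGK1 (2.94), BHLHE41 (2.54), THRB (1.95), TFPI (1.46) and SEPP1 (1.36), all on the log2 scale. THRB stood at 15.1 ± 3.3 CPM in EV and at 339.6 and 313.3 in TRB cells with T3, against 14.8 and 81.8 with vehicle. Receptor transcript and ligand thus rose together in TRB cells, and their parts in the interaction cannot be told apart. More negative with T3 were ADRA2A (-2.41), SPINK1 (-1.65) and PKDCC (-0.87). The structural RNAs and histone gene were more negative as well: RN7SL1 (-3.59), RN7SL2 (-2.70), SNORD13 (-2.53), HIST2H3D (-2.37) and SCARNA2 (-1.74). With all 12 libraries THRB, CLEC3A, SGK1, TNC, BHLHE41, MMP7, ADRA2A and SPINK1 passed, and the other 8 did not. The 8 named passed in all 11 fits that left out 1 of the 11 libraries. RN7SL1 passed in 4 of those 11 fits, SNORD13 in 2 and TFPI in 6.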

How the results depend on the processing

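The 1563 calls in vehicle kept within 1.5 times under relative log expression or upper-quartile factors, DESeq2 (1629) and a minimum of 10 counts in every library. Without a filter 2647 passed (1473 lower), and with a required fold of 1.5 only 7 (2 higher, 5 lower). With 11 libraries 11 passed (4 higher, 7 lower), and with all 12 libraries 3 (1 higher, 2 lower). GC offsets gave 429 (197 higher, 232 lower). Leaving out 1 library gave 13 to 1837 genes, 5 to 998 higher and 8 to 839 lower, with 616 without TRB replicate 1, 13 without TRB replicate 3, 36 without EV replicate 2 and 294 without EV replicate 3. The cause was not tested; fits without a library have fewer samples by construction. The 259 genes passing in both fits became 1015 without a filter, 2 with 12 libraries, 11 with 11 libraries, 5 with the required fold, and 12 to 341 without 1 library. Among the 12 genes called in all 6 fits that left out 1 library were THRB, CLEC3A, SGK1, TNC, BHLHE41, MMP7, MUC5AC, SPINK1, TSPO, PKDCC and MTUS1.

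With a replicate block 2459 genes passed (1398 lower), and 389 (187 higher, 202 lower) with the block and GC offsets. The samples share only a number: same-numbered TRB and EV libraries had deviation correlations of 0.169, 0.126 and 0.0276, and not every library correlated best with its own number (TRB replicate 3 with EV replicate 2, 0.145).

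Between the vectors with T3 the count of 1224 became 32 with TRB with T3 replicate 2, 4357 with GC offsets, 4073 with the block, and 267 to 3356 without 1 library. The interaction count of 2259 became 374 with 12 libraries, 4314 with GC offsets and 1074 to 5459 without 1 library, the highest without EV with T3 replicate 2 in both cases. THRA turned to -0.10 with GC offsets (-0.1038, and -0.1021 with the block as well), and CENPE to 0.038 and 0.023 in these settings. Of 449 alternative values of the 25 genes named always or by size, 354 kept direction and side of the threshold, 93 no longer passed and 2 reversed. For 64 called list members, 656 of 1151 kept both, 493 no longer passed and 2 reversed. EV replicate 1, with 4606508 counts, is the shallowest of the 6 vehicle libraries and limits genes of low level.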

Other observations

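Cytosolic chaperones, assembled as a list after their values had been seen and so without a list test, had a median log2 fold change of -0.26 in vehicle. Of 21 tested members 10 passed, all lower, against 5.26% lower over all genes. With GC offsets 7 passed as lower with a median of -0.17, and 5 passed in both fits, against 1.9% and 1.03% lower over all genes. HSP90AA1, the inducible form of HSP90, stood at 1521 ± 116.2 CPM in EV cells and 1169 ± 49.1 in TRB cells (log2 -0.38, edgeR adjusted p 0.01897; -0.31 with GC offsets). HSPA8, the constitutive HSP70, stood at 2023 ± 41.8 and 1592 ± 108.2 (log2 -0.35), HSPH1 at 250.5 ± 14.4 and 187.1 ± 8.97 (-0.42), DNAJA1 at 161.7 ± 5.51 and 120.8 ± 5.23 (-0.42) and HSPA1A at 83.1 ± 4.96 and 64.4 ± 9.8 (-0.36). HSP90AB1, the other HSP90 gene of the cytosol, stood at 1949 ± 47.2 and 1861 ± 75.6 and did not pass (adjusted p 0.4882).

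Secretory and gut epithelial genes, also listed after their values had been seen, went both ways. Of 17 tested, 6 passed as higher and 2 as lower, and all 8 did so in both fits. Over all genes 1.09% passed as higher and 1.03% as lower in both fits. With GC offsets 7 passed as higher and 3 as lower, against 1.61% and 1.9% of all genes, which adds VIL1 as higher and MUC1 as lower. Beside MUC5AC, SPINK1 and TFF3, the lectin REG4 (204.7 ± 22.8 and 286.7 ± 9.91 CPM, log2 0.49), PHGR1 (18.4 ± 4.35 and 31 ± 4.12, log2 0.76) and the adhesion molecule CEACAM6 (37.9 ± 0.981 and 47.9 ± 1.19, log2 0.34) were higher in TRB cells. LYZ and the transmembrane mucin MUC13 (22.2 ± 1.35 and 15.3 ± 1.69, log2 -0.54) were lower.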
